A study of Mus musculus with 6 samples.

Results

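The genes described here are 44 genes of ribosome biogenesis, with the transcription factor Myc, measured in the epithelium of the mouse common bile duct. They were found by gene name among the probes of the arrays, and all 44 had at least 1 probe. They are 44 of 20737 genes tested. The 3 DOX+ samples came from iFGF10 mice of strain C57BL/6, in which Fgf10 can be induced, given 0.02% doxycycline as drinking water for 5 days. The 3 DOX- samples came from mice labelled as untreated iFGF10 mice of the same strain, given plain water over the same 5 days. Doxycycline is an antibiotic that switches genes under a tetracycline-controlled promoter. The sample descriptions of the DOX- group also carry names that begin with WT and hold a pair of numbers each, so whether those mice carried the construct, and whether a sample pools mice, was not settled. The promoter that drives the construct and the ages of the mice are not given in the sources used here. Mice without the construct given the drug were not analysed here, so an effect of the drug and an effect of the construct cannot be told apart. The study concerned papillary growths of the biliary epithelium under FGF10, a secreted growth factor, and the comparison here asks how ribosome biogenesis genes differ after the drug.

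Ribosomes are built in the nucleolus. RNA polymerase I copies the ribosomal DNA into a long precursor RNA. Small nucleolar ribonucleoproteins (snoRNPs) of the box C/D kind guide methylation of that RNA and those of the box H/ACA kind guide its pseudouridylation. Processing factors then cut the RNA and fold it with ribosomal proteins into a small and a large subunit. MYC is a transcription factor that binds the E-box DNA motif CACGTG with its partner MAX, and in many cell types it raises the expression of ribosome biogenesis genes during growth. In epithelia, FGF10 signals mainly through the receptor FGFR2.

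Ribosome biogenesis genes mostly had lower means in DOX+ ducts than in DOX- ducts, by modest amounts, while Myc did not differ beyond its spread. Of the 44 genes 38 had a lower mean in DOX+ and 6 a higher one, with a median log2 difference (DOX+ minus DOX-) of -0.23. Over all 20737 genes 51.8% had a lower mean and the median was -0.012. None of the 44 passed the test (limma, Benjamini-Hochberg adjusted p below 0.05 over all genes), the smallest adjusted p being 0.228, and 8 of all genes (0.0386%) passed, 4 of them lower in DOX+ (0.0193%). At an unadjusted p below 0.05 there were 13 of the 44 genes, all lower in DOX+, where 6.32% of all genes were past that p and lower, and 13.3% past it in either direction. For 21 of the 44 genes (47.7%) every DOX+ array lay below every DOX- array, as for 10.9% of all genes. The reverse held for 0 of the 44 and for 10.1% of all genes. The medians of the role groups were -0.51 for 7 snoRNP genes, -0.24 for 12 small subunit factors, -0.21 for 6 genes of RNA polymerase I, -0.19 for 4 multifunctional nucleolar proteins and -0.16 for 14 large subunit factors. Without the snoRNP genes, 31 of 37 were lower, with a median of -0.20. No test was made between these groups, and their medians moved with the processing. When slide row was blocked they were -0.39 for snoRNP genes, -0.11 for small subunit factors, 0.00021 for RNA polymerase I (3 of 6 genes lower), -0.14 for nucleolar proteins and -0.07 for large subunit factors. Without DOX- replicate 3 they were -0.42, -0.16, -0.11, -0.13 and -0.12 in the same order. The RNA polymerase I median was -0.32 and the large subunit median -0.24 without DOX- replicate 1, and the nucleolar median was -0.08 with quantile normalization.

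Levels are log2 processed intensities relative to the 75th percentile of the array. For each gene the probe with the highest mean stands for it, and these 44 probes were well above background on all 6 arrays, so no member was lost to the filter on dim probes. A level of 1 probe cannot be set against that of another. The arrays were not alike within the groups. DOX- replicate 3 gave the highest of the 6 values for 38 of the 44 genes, where it did so for 33.0% of all genes, and DOX+ replicate 3 gave the lowest for 23, against 20.5% of all genes. DOX- replicate 3 also had the smallest share of spots well above background, 55.93%, against 59.39% to 61.9% on the other arrays. The DOX- array nearest to the DOX+ mean was replicate 1 for 31 of the 44 genes. That array sat in the first slide row together with the 3 DOX+ arrays, while the second row held the other DOX- arrays. Set against DOX- replicate 1 alone, which is the comparison that blocking on slide row leaves, 32 of the 44 genes were lower with a median of -0.13, and for 22 of them all DOX+ arrays lay below it, as for 24.7% of all genes. Without DOX- replicate 3 the median was also -0.13, with 38 genes lower. The part of slide position in these differences was otherwise not tested.

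**Figure D1:**
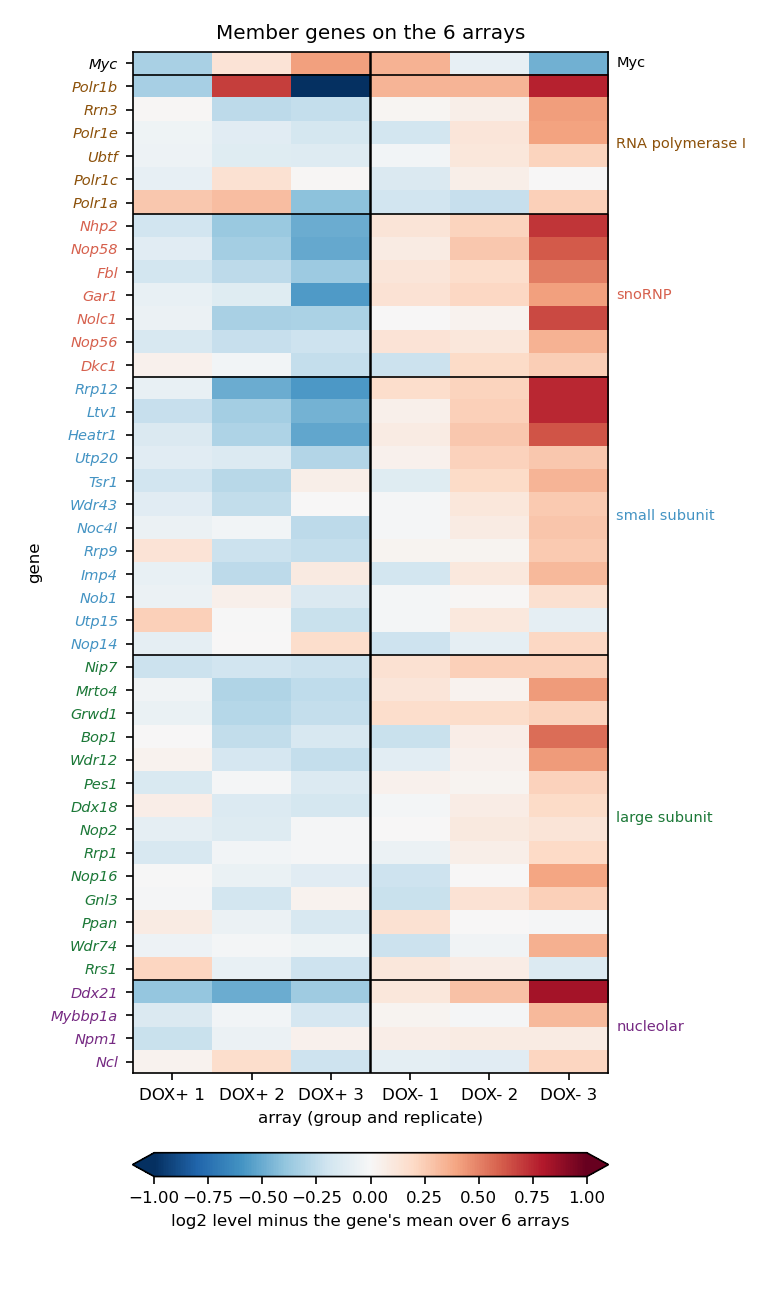
Levels of the 44 genes (rows, by role) on the 6 arrays (columns), as log2 level minus the gene's mean over the 6 arrays; red is higher and blue is lower, with colours saturating at 1 and -1. Most rows are blue in the DOX+ columns and red in the column of DOX- replicate 3, which holds the highest value for 38 of 44 genes.

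The E-box CACGTG was searched in promoter windows from RefSeq (GRCm38.p6), each 300 bases long with 250 before the start of the gene and 50 after it. The motif reads the same on both strands. Windows were held for 38 of the 44 genes; those without one in the table were Myc, Fbl, Npm1, Bop1, Rrp12 and Rrs1. The motif was present for 10 of 38 genes (26.3%), where 8.09% of all genes in the table and 11% of the genes tested on the arrays held it. In lists described below it was present for 8 of 56 other ribosome biogenesis genes (14.3%) and 14 of 29 other MYC targets (48.3%). Of the cytosolic ribosomal protein genes 10.5% held it. The related motif CACGCG, or its reverse complement CGCGTG, was present for 13 of 38 (34.2%), against 10.5% of all genes in the table and 17.7% of those tested. Its shares were 30.4% for other ribosome biogenesis genes, 44.8% for other MYC targets and 21.1% for cytosolic ribosomal protein genes. Mean GC content was 59.8% in the windows of the 38 genes, 53.8% in all windows and 59.3% in those of the genes tested. Among the genes with an unadjusted p below 0.05, 3 of 11 held CACGTG, and among the others 7 of 27 did. By role CACGTG was found for 5 of 11 small subunit factors, 3 of 12 large subunit factors, 1 of 6 RNA polymerase I genes, 1 of 3 nucleolar proteins and 0 of 6 snoRNP genes. The related motif had another order. In the same order of roles it was found for 1 of 11, 5 of 12, 3 of 6, 2 of 3 and 2 of 6 genes.

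The windows of 6 genes are printed in lower case, 5′ to 3′ on the strand of the gene, with CACGTG in capitals. They are the genes with CACGTG and an unadjusted p below 0.05 (Ltv1, Utp20 and Grwd1), Rrn3 with 2 copies, and the snoRNP genes Nop58 and Nhp2. The windows of Nop58 and Nhp2 held no CACGTG, but that of Nhp2 held the related motif as CGCGTG. In Rrn3 the copies began at positions -215 and -48 relative to the start of the gene. In Ltv1, Utp20 and Grwd1 the motif began at base 29, 38 and 35 counted from the first base of the gene. A motif match describes the letters and does not show binding.
Rrn3, chr16:13780449-13780748, + strand: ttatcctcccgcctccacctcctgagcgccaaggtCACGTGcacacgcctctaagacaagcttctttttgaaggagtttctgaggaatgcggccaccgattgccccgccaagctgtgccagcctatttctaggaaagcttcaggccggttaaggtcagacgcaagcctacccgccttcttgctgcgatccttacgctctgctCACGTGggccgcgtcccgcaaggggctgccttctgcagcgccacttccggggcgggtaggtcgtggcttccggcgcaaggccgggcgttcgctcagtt
Ltv1, chr10:13193088-13193387, - strand: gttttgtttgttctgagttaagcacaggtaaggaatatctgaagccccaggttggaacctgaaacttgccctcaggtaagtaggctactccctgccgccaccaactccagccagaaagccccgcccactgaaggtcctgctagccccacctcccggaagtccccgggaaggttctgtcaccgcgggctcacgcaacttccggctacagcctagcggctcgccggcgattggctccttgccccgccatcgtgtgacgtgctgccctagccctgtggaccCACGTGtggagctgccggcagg
Utp20, chr10:88826765-88827064, - strand: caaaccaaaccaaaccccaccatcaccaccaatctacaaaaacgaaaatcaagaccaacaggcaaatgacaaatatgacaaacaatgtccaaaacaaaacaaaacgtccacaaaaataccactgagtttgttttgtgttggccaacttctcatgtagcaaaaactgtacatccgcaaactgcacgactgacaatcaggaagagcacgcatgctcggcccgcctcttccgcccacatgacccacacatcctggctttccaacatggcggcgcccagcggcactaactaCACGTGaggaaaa
Grwd1, chr7:45830740-45831039, - strand: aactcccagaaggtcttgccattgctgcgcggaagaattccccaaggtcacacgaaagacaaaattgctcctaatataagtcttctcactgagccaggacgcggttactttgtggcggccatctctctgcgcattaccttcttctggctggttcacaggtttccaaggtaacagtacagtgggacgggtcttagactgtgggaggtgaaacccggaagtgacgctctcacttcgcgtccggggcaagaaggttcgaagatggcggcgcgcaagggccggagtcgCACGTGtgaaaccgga
Nop58, chr1:59684756-59685055, + strand: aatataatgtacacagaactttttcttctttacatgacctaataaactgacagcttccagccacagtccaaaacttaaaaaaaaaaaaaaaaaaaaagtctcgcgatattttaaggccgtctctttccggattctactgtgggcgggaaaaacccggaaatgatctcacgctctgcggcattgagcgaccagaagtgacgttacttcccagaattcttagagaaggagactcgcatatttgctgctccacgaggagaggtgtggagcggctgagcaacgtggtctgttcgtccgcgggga
Nhp2, chr11:51619523-51619822, + strand: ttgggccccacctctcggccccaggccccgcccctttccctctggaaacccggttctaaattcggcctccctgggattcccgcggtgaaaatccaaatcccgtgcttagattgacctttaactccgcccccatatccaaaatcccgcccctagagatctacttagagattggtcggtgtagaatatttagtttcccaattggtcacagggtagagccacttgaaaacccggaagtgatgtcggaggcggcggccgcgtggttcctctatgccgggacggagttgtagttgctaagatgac

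Myc, the transcription factor that gives the group its second name, had overlapping groups. Its probe at chr15:61821417-61821476 (mm9, the build of the files) had levels of -2.10, -1.64 and -1.37 in DOX+ replicates 1 to 3, against -1.43, -1.86 and -2.26 in DOX-. The highest DOX- value thus stood above 2 of the 3 DOX+ values. The difference was 0.15 (SE 0.28; limma adjusted p = 0.850), and its sign turned without DOX+ replicate 3 (-0.017), without DOX- replicate 3 (-0.06) and when slide row was blocked (-0.27). A second Myc probe, at chr15:61820925-61820984, read -4.41, -2.83 and -3.55 in DOX+ and -3.65, -4.45 and -4.38 in DOX-, with a difference of 0.57 (SE 0.43). These groups overlapped too.

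Of the genes that partner or oppose MYC, 12 of 13 listed were measured and 0 passed the test in either direction, with 7 lower, 5 higher and a median of -0.048. Mxi1, a MAX partner that represses MYC targets, had 1.39, 1.69 and 1.51 in DOX+ and 1.22, 1.13 and 0.78 in DOX-. All its DOX+ values lay above the DOX- values, with a difference of 0.48 (SE 0.17; limma adjusted p = 0.322). Mxd4, of the same repressor family, had a difference of 0.31 (SE 0.14) and groups that did not overlap. Mxd3, also of that family, had -2.22 (SE 0.89) and exceeded background clearly on only 1 DOX+ array.

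The RNA polymerase I genes gave mixed results. Rrn3, the initiation factor that joins the polymerase to its promoter, had 1.04, 0.77 and 0.79 in DOX+ against 1.05, 1.09 and 1.45 in DOX-. Ubtf, which binds the ribosomal DNA promoter and keeps its chromatin open, had 5.80, 5.73 and 5.72 in DOX+ against 5.82, 5.96 and 6.07 in DOX-. In both genes the groups did not overlap, but DOX- replicate 1 lay only just above the highest DOX+ value. The differences were -0.33 (SE 0.16; limma adjusted p = 0.432) for Rrn3 and -0.20 (SE 0.12; limma adjusted p = 0.516) for Ubtf.

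Subunits of the enzyme itself had overlapping groups. Polr1a, the largest and catalytic subunit, had 3.78, 3.82 and 3.10 in DOX+ and 3.32, 3.28 and 3.75 in DOX-, a difference of 0.12 (SE 0.25). Polr1b, the second catalytic subunit, had -0.96, 0.06 and -2.45 in DOX+ and -0.29, -0.29 and 0.14 in DOX-. Its difference of -0.97 (SE 0.61; limma adjusted p = 0.525) came with the widest spread of the 44, as DOX+ replicate 3 stood far below the others. The difference was -0.30 without DOX+ replicate 3, -1.56 without DOX+ replicate 2 and -0.55 with array weights. Polr1c, which RNA polymerase III shares, had 2.70, 2.93 and 2.79 in DOX+ and 2.63, 2.84 and 2.78 in DOX-, a difference of 0.06 (SE 0.13). Polr1e, also called PAF53, had -1.0, -1.07 and -1.13 in DOX+ and -1.14, -0.83 and -0.55 in DOX-, a difference of -0.23 (SE 0.18). Of these, Polr1a and Polr1c turned sign without DOX+ replicate 2 (-0.011 and -0.0037), Polr1c also without DOX- replicate 1 (-0.0035), and Polr1e when slide row was blocked (0.08).

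The snoRNP proteins were the group with the lowest median. For 6 of their 7 genes the groups did not overlap, all lower in DOX+, as for 10.9% of all genes. Fbl, fibrillarin, the methyltransferase of the box C/D particles, had 4.0, 3.92 and 3.82 in DOX+ against 4.30, 4.36 and 4.69 in DOX-. Its difference was -0.54 (SE 0.15; limma adjusted p = 0.255), or 1.45-fold lower in DOX+. Nop58, a core protein of the same particles, had 1.37, 1.14 and 0.97 in DOX+ against 1.56, 1.75 and 2.09 in DOX-, 1.56-fold lower. Nop56, its partner, had 2.83, 2.76 and 2.78 in DOX+ against 3.13, 3.10 and 3.34 in DOX-, 1.32-fold lower. The 3 box C/D proteins therefore had the same order of groups on every pair of arrays.

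In the box H/ACA particles, Nhp2 had 3.14, 2.96 and 2.84 in DOX+ against 3.46, 3.56 and 4.05 in DOX-, with a difference of -0.71 (SE 0.19; limma adjusted p = 0.249). Gar1, another core protein, had 2.43, 2.38 and 1.94 in DOX+ against 2.65, 2.71 and 2.91 in DOX-, 1.42-fold lower. Dkc1, dyskerin, the pseudouridine synthase itself, had -2.27, -2.34 and -2.55 in DOX+ and -2.53, -2.12 and -2.07 in DOX-. Its groups overlapped, and its difference of -0.15 (SE 0.17) became 0.15 when slide row was blocked. Nolc1, a chaperone that brings snoRNPs together, had 1.17, 0.90 and 0.91 in DOX+ against 1.23, 1.26 and 1.89 in DOX-, a difference of -0.47 (SE 0.22; limma adjusted p = 0.408).

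**Figure D2:**
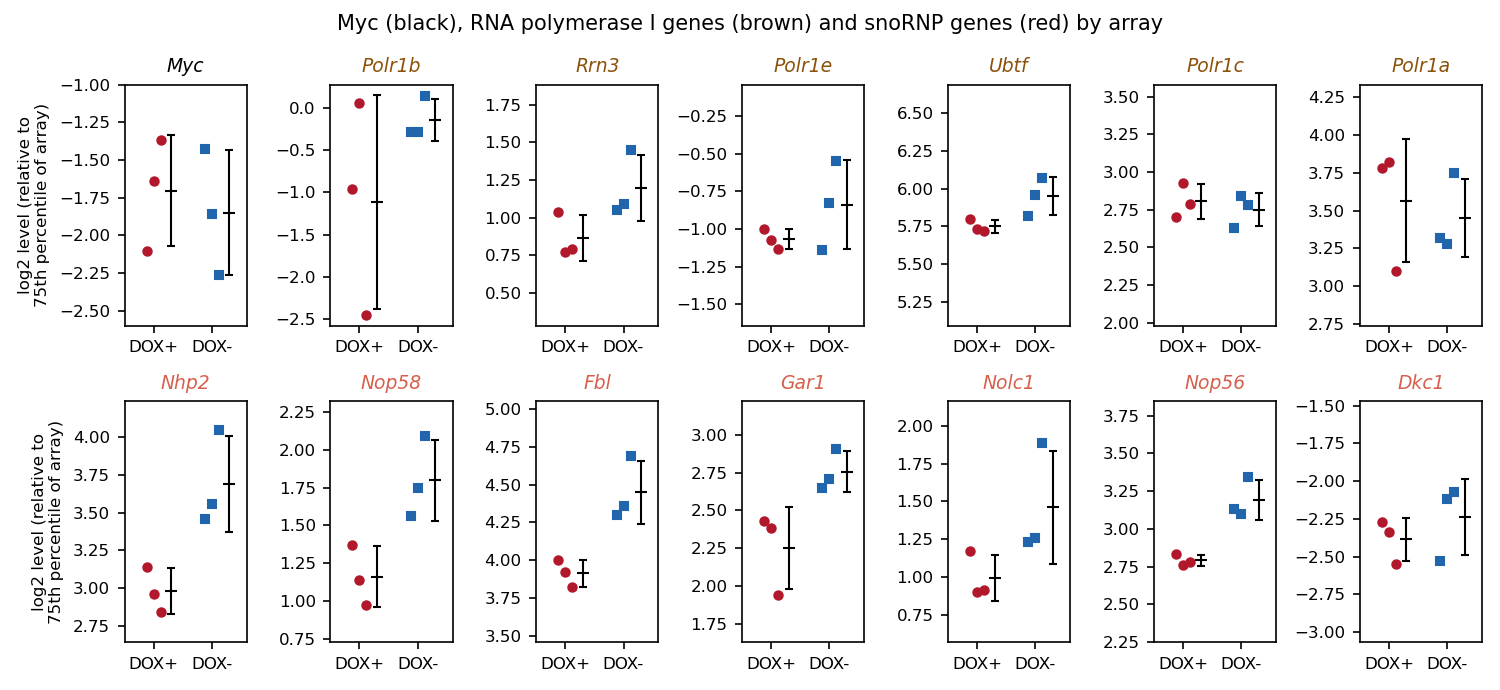
Log2 levels (vertical axes, relative to the 75th percentile of the array) of Myc, 6 RNA polymerase I genes and 7 snoRNP genes on the 3 DOX+ arrays (red circles) and 3 DOX- arrays (blue squares); black bars show the mean and SD. The groups overlap for Myc, 4 of the 6 RNA polymerase I genes and Dkc1, and do not for the other 6 snoRNP genes. Of all genes, 10.9% have every DOX+ array below every DOX- array.

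Of the 12 factors of small subunit processing 10 were lower in DOX+, where 51.8% of all genes were, and 5 had no overlap, as 10.9% of all genes did in that direction. Rrp12, which acts in maturation and export of the pre-ribosomes, had 0.81, 0.39 and 0.31 in DOX+ against 1.06, 1.11 and 1.64 in DOX-, 1.70-fold lower (limma adjusted p = 0.269). Ltv1, an assembly factor of the small subunit, had 1.31, 1.2 and 1.07 in DOX+ against 1.59, 1.78 and 2.29 in DOX-, 1.61-fold lower (limma adjusted p = 0.281). Heatr1, a scaffold of the processome that also supports RNA polymerase I transcription, had 1.49, 1.32 and 1.11 in DOX+ against 1.71, 1.90 and 2.26 in DOX-, 1.57-fold lower. In all 3 genes DOX- replicate 3 was the highest array.

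Utp20, another processome component, had -0.29, -0.31 and -0.47 in DOX+ against -0.13, 0.05 and 0.09 in DOX-, a difference of -0.36 (SE 0.13). Noc4l had -0.23 and no overlap, though its highest DOX+ level of 1.05 lay close to its lowest DOX- level of 1.07, and Nop14, whose yeast counterpart binds that of Noc4l, had the highest difference of the group at 0.06 (SE 0.16). Utp15, which links the processome to ribosomal DNA transcription, had a difference of 0.0083 (SE 0.16) that was -0.09 with quantile normalization. The differences were -0.27 for Tsr1, -0.24 for Wdr43, -0.21 for Rrp9, -0.16 for Imp4 and -0.10 for Nob1, the nuclease that makes the last cut of the small subunit RNA. The groups overlapped for each of these 5 genes.

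All 14 factors of the large subunit had lower means in DOX+, from -0.42 to -0.041, and 5 had no overlap, where 10.9% of all genes had none in that direction. When slide row was blocked, 10 of the 14 were lower. Nip7, which acts in precursor RNA processing, varied little within the groups, with 1.45, 1.47 and 1.45 in DOX+ against 1.82, 1.90 and 1.90 in DOX-. Its difference of -0.42 (SE 0.11; limma adjusted p = 0.242) came with equal levels in DOX- replicates 2 and 3. Grwd1, a chaperone of ribosomal proteins and histones, had 0.00, -0.22 and -0.17 in DOX+ against 0.24, 0.25 and 0.29 in DOX-, 1.31-fold lower. A dimmer Grwd1 probe gave a difference of -0.14 (SE 0.18), with overlapping groups. Mrto4, an assembly factor that resembles a ribosomal stalk protein, had 1.02, 0.75 and 0.80 in DOX+ against 1.17, 1.09 and 1.48 in DOX-, also 1.31-fold lower.

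Pes1, Bop1 and Wdr12 form the PeBoW complex, which is needed to process the large subunit RNA. Pes1 had 2.15, 2.29 and 2.16 in DOX+ against 2.34, 2.33 and 2.53 in DOX-, a difference of -0.20 (SE 0.12). Bop1 (-0.27, SE 0.22) and Wdr12 (-0.24, SE 0.18) had overlapping groups. Nop2, an RNA methyltransferase, had -0.15 and no overlap. Ddx18, a helicase, had -0.17, Rrp1 -0.14, Nop16 -0.13, Gnl3, a GTPase also called nucleostemin, -0.11, Ppan -0.09, Wdr74 -0.08 and Rrs1 -0.041, all with overlapping groups. When slide row was blocked, Nop16, Bop1, Wdr74 and Gnl3 had differences of 0.14, 0.09, 0.17 and 0.17.

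Among the multifunctional nucleolar proteins, Ddx21 had the smallest unadjusted p of all 44 genes. This helicase takes part in both transcription and processing of ribosomal RNA. It had -0.15, -0.26 and -0.12 in DOX+ against 0.35, 0.53 and 1.07 in DOX-, a difference of -0.83 (SE 0.21; limma adjusted p = 0.228), or 1.77-fold lower. The gap between the nearest arrays of the groups was wider than the whole range of the DOX+ arrays. Ncl, nucleolin, had 3.71, 3.85 and 3.47 in DOX+ and 3.58, 3.56 and 3.89 in DOX-, with the same mean of 3.67 in both groups. Mybbp1a, a nucleolar repressor of RNA polymerase I transcription, had 3.30, 3.42 and 3.28 in DOX+ against 3.47, 3.43 and 3.77 in DOX-. Its other probes gave differences of -0.043 (SE 0.13) and -0.03 (SE 0.14), with overlapping groups.

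**Figure D3:**
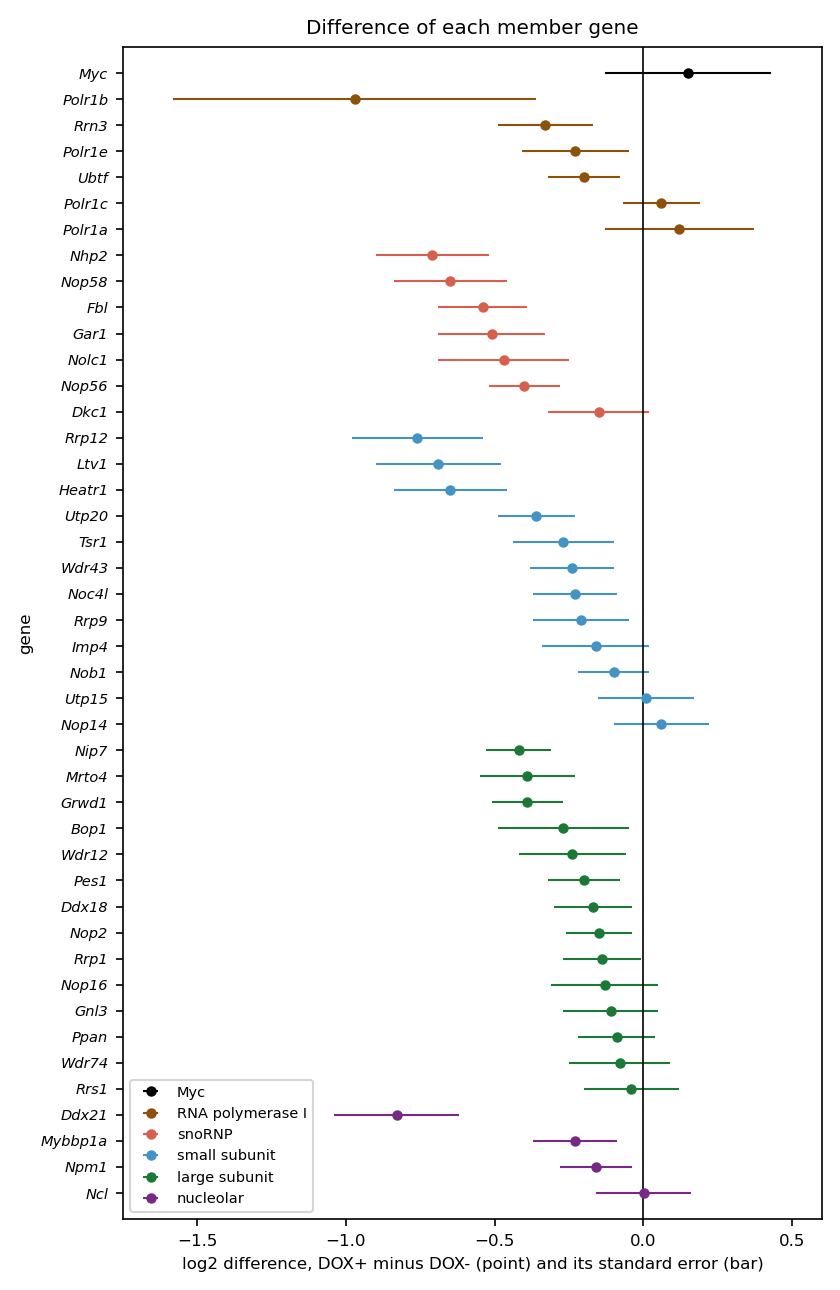
Log2 difference (DOX+ minus DOX-, horizontal axis) of the 44 genes, coloured by role and ordered within each role; points are the limma estimates and bars their standard errors. The points of 38 genes lie left of 0, from Polr1b at -0.97 to Rrs1 at -0.041, and Myc lies at 0.15.

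The 44 genes had 88 probes, of which 81 passed the filter, and 5 of the other 7 were not well above background on any array. Among 25 genes with several probes that passed, all probes were lower in DOX+ for 13, all higher for 3 and of both signs for 9. The genes with both signs were Ddx18, Dkc1, Imp4, Nop56, Pes1, Polr1a, Ubtf, Wdr43 and Wdr74. Their probes ran from -0.24 to 0.11 for Ddx18, -0.15 to 0.07 for Dkc1, -0.16 to 0.18 for Imp4, -0.20 to 0.16 for Pes1, -0.12 to 0.12 for Polr1a and -0.20 to 0.13 for Ubtf. For Wdr43 they were -0.24 and 0.012, and for Wdr74 -0.08 and 0.0042, so in these 9 genes the sign depended on the probe. Over the 81 probes 63 were lower with a median of -0.17, against 49.1% lower over all 31720 probes that passed. The 4 Nop58 probes that passed, spread over chr1:59752924-59768289, gave -0.32, -0.37, -0.42 and -0.65, and 3 of them had no overlap between the groups. The Gar1 probes gave -0.51 and -0.44, both without overlap. The Nop56 probes gave -0.40 and -0.38, but the third, at chr2:130104489-130104548, had 0.20 (SE 0.23).

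Npm1, nucleophosmin, a chaperone of ribosome assembly, differed between its probes. The brightest, at chr11:33056689-33056991, had 4.0, 4.17 and 4.27 in DOX+ against 4.29, 4.31 and 4.31 in DOX-, a difference of -0.16 (SE 0.13). A probe with 10 spots, at chr11:33052849-33054041, gave -0.047 (SE 0.17) and overlapping groups. The third, at chr11:33055026-33055085, had 0.54, 0.37 and 0.52 in DOX+ against 0.91, 0.96 and 1.12 in DOX-, a difference of -0.52 (SE 0.13) with no overlap. Whether these probes read the same transcripts was not determined here, since no gene models of the mm9 build were used.

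Other genes of the same pathway also had mostly lower means, with 0 passing the test in either direction. In a list of 65 other measured ribosome biogenesis genes 55 were lower, the median was -0.17 and 20 (30.8%) had every DOX+ array below every DOX- array, where 51.8% of all genes were lower and 10.9% had that order. The median was -0.10 when slide row was blocked and -0.11 with quantile normalization. Rpf2, of the particle that brings in the small ribosomal RNA of the large subunit, had 1.05, 0.85 and 0.88 in DOX+ against 1.32, 1.39 and 1.76 in DOX-. Ebna1bp2, a large subunit factor, had a difference of -0.55 (SE 0.16). Tbl3, a processome component, had the opposite sign, with 2.00, 2.57 and 2.21 in DOX+ against 1.38, 1.47 and 1.78 in DOX-, a difference of 0.72 (SE 0.20; limma adjusted p = 0.249).

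Of 32 other MYC targets 25 were lower, where 51.8% of all genes were, with a median of -0.25. Every DOX+ array lay below every DOX- array for 8 of them (25.0%), against 10.9% of all genes. The reverse held for 2, against 10.1% of all genes. Hspe1, a mitochondrial chaperonin subunit, had 3.86, 3.73 and 4.04 in DOX+ against 4.29, 4.64 and 5.01 in DOX-, and Ran, the GTPase of nuclear transport, had a difference of -0.60 (SE 0.18). Shmt1, a folate enzyme, had 1.2 (SE 0.42). This median was -0.12 without DOX- replicate 3 and -0.044 when slide row was blocked.

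Ribosomal proteins are the partners of the RNA in the finished ribosome. Of 49 measured cytosolic ribosomal protein genes 43 were lower, where 51.8% of all genes were. Their median was -0.08, with differences from -0.27 to 0.34. Only 1 had no overlap (Rpl22, -0.24), which is 2.04% of the list against 10.9% of all genes in that direction. The median of the 49 genes was 0.0062 without DOX- replicate 3 and 0.05 when slide row was blocked. Of 36 mitochondrial ribosomal protein genes 34 were lower, where 51.8% of all genes were. Groups without overlap were found for 5 (13.9%), all lower, against 10.9% of all genes in that direction. The median of the 36 genes was -0.15, which was -0.0069 without DOX- replicate 3 and 0.042 when slide row was blocked. Mrpl22 had the smallest p of the 36 at -0.48 (SE 0.18, limma adjusted p = 0.337).

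Proliferation genes and cell type markers also differed between the arrays. The mean level of the 44 genes was 1.17, 1.12 and 1.02 on the DOX+ arrays against 1.25, 1.35 and 1.57 on the DOX- arrays. On the same arrays the mean of 19 proliferation genes was -0.22, -1.52 and -1.06 in DOX+ against -0.51, 0.21 and 0.53 in DOX-. All 19 had lower means in DOX+, where 51.8% of all genes had, with a median difference of -1.03, and 0 passed the test. Only 1 of the 19 had every DOX+ array below every DOX- array, as 10.9% of all genes did. Both list means were highest in DOX- replicate 3 and lowest on a DOX+ array. Between the arrays of replicate 1, the proliferation mean was -0.22 in DOX+ and -0.51 in DOX-. The mean of the 44 genes was 1.17 and 1.25 on the same 2 arrays, 1 of each group. The cyclin genes Ccna2 and Ccne1 had differences of -1.64 (SE 0.60) and -1.04 (SE 0.37). Aurkb, a mitotic kinase, had -1.37 (SE 0.48) and exceeded background clearly on only 2 DOX+ arrays. The part of proliferation in the lower ribosome biogenesis levels was not tested.

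All 8 cholangiocyte markers (among them Krt19, Krt7 and Epcam) were well above background on all 6 arrays, and so were markers of other cell types. These were 6 of 6 for fibroblasts, 5 of 5 for smooth muscle, 6 of 6 for endothelium, 5 of 6 for mast cells, 5 of 5 for hepatocytes, 4 of 5 for pancreatic acini, 5 of 5 for macrophages, 3 of 6 for lymphocytes and 3 of 4 for neutrophils. The array means of the cholangiocyte markers ran from 2.54 to 3.01 in DOX+ and from 3.15 to 3.28 in DOX-. Of the 8 markers 7 had lower means, as 51.8% of all genes did, and 2 had no overlap, as 10.9% of all genes did. Their differences were uneven, from -2.01 to 0.14 with a median of -0.22. The 2 brightest, Krt19 (-0.27, SE 0.27) and Spp1 (-0.0038, SE 0.25), had overlapping groups. The array means of 6 endothelial markers ran from 0.06 to 0.53 in DOX+ and from -0.58 to -0.11 in DOX-. Those of 6 mast cell markers ran from -1.37 to 1.77 in DOX+ and from -3.0 to -2.05 in DOX-. No defining marker of the cholangiocyte, endothelial and mast cell lists was below background on all arrays. Other lists varied within the groups. Pancreatic acinar means were 3.74, 2.12 and 2.59 in DOX+ replicates 1 to 3 and -0.75, 2.62 and 4.47 in DOX-. Smooth muscle means were 4.15, 3.6 and 2.93 in DOX+ and 5.05, 2.54 and 2.6 in DOX-. The acinar mean was thus highest in DOX- replicate 3, and the smooth muscle mean in DOX- replicate 1. In such bulk samples, fewer cells of a type and less RNA per cell cannot be told apart, and the part of cell composition in the differences was not tested.

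**Figure D4:**
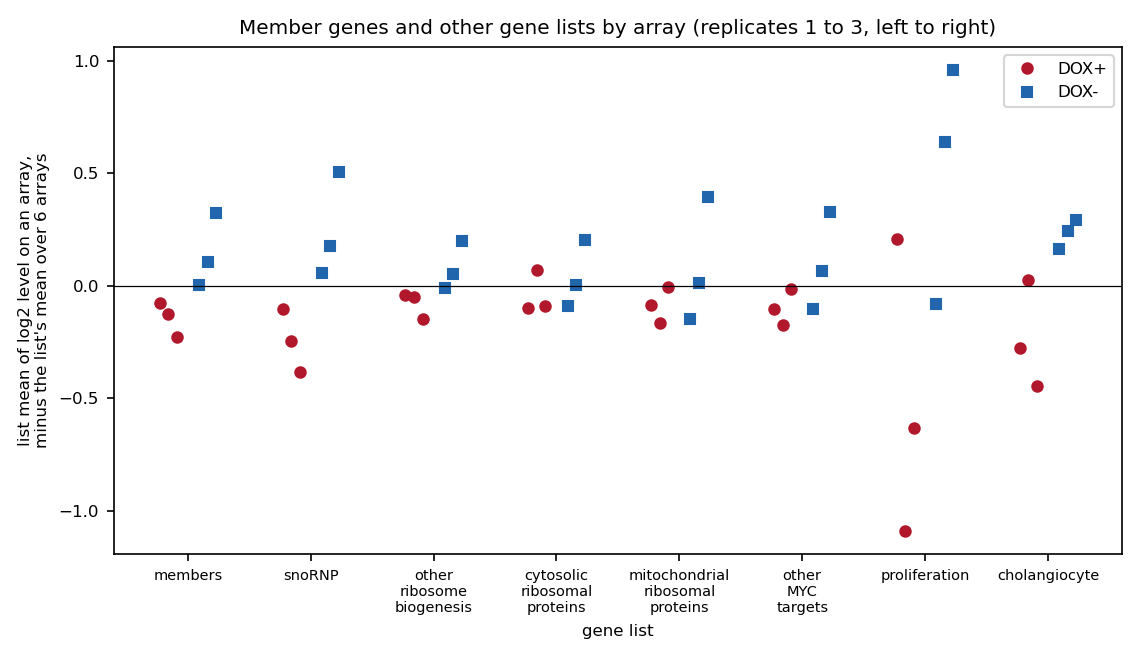
Mean log2 level of each gene list on each array, minus the list's mean over the 6 arrays (vertical axis), for DOX+ (red circles) and DOX- (blue squares), replicates 1 to 3 from left to right within a group. The members, snoRNP, other ribosome biogenesis and cholangiocyte lists have DOX+ points below all DOX- points, and the other 4 lists overlap.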

How the data were processed

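RNA of 3 DOX+ and 3 DOX- samples was read on 6 Agilent 1-colour arrays of 1 slide, with Cy3 as the dye. Per the file headers, the authors' intensity values were made with Agilent Feature Extraction 10.7.1.1 (9.5.1.1 per the submitters' processing notes), background-subtracted and detrended within each array. The deposited files also give 0 or 1 flags, another kind of value, for spots well above background. A deposited table of the authors' processed intensity values served as an alternative; its values are linear, with the same median of 57.79 in every column, as after quantile normalization, though no source used here states the step.

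From the files, log2 of the processed intensity minus each array's 75th percentile (666.16 to 910.07) was computed. Between 50 and 64 outlier spots an array were left out, spots of a probe were averaged, and probes well above background on all 3 arrays of a group were kept. The brightest probe by mean stood for its gene. The test between groups was limma 3.58.1 under R 4.3.3 (two-sided, group alone), tested first on simulated data. The 3 arrays a group limit the precision (median SE 0.185), and each p-value reflects only the spread among these samples, which the labels do not tie to single animals. The genes, lists and role groups were chosen with earlier results of these data known. All 44 genes may be named; every array is given for Myc, RNA polymerase I and snoRNP genes, and otherwise for genes among the 4 smallest p-values of a role group or with probes that differ. Of other lists, genes come from the 3 with the smallest p. Alternatives covered background, scaling, filter, probe choice, weights, blocks and left-out arrays.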

Additional observations from a re-analysis of the deposited data

How the results depend on the processing

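None of the 44 genes passed the test in the main analysis or in any of 17 alternatives. At least 32 had a lower mean in each. At an unadjusted p below 0.05 (limma) there were 13 of the 44 in the main analysis, where 13.3% of all genes were past it. The slide row block is left out of these counts, and the other alternatives gave 9 to 14 of them. The 9 came without DOX- replicate 2, against 7.43% of all genes. The 14 came with normexp, against 13.1% of all genes, and with array weights, against 25.1%. The median of the 44 stayed between -0.30 and -0.13. The count of all genes that passed, 8, was 1 with no filter on dim probes, 2 with quantile normalization or the authors' processed table, 3 with eBayes trend and robust, 5 with probes well above background on all 6 arrays, 375 with array weights, and 0 to 9 without single arrays. With the slide row as a block, only DOX- replicate 1 is set against the 3 DOX+ arrays, so effect sizes alone are given. Medians were -0.044 for other MYC targets, 0.05 for cytosolic ribosomal proteins and -0.35 for proliferation, against -0.25, -0.08 and -1.03 in the main analysis. Under that block the difference was -0.27 for Myc, 0.08 for Polr1e, 0.15 for Dkc1, 0.11 for Imp4, 0.14 for Nop16, 0.09 for Bop1, 0.17 for Wdr74 and 0.17 for Gnl3. With the replicate block 0 genes passed and 38 of the 44 were lower. Of these genes 10 were at an unadjusted p below 0.05 (limma), where 10.9% of all genes were. Arrays of the same number deviated with correlations of -0.087, -0.131 and -0.02, and arrays of unlike number with -0.129 to 0.219. The labels state no pairing, and with 3 arrays a group these correlations cannot decide whether there was one. Small differences changed sign elsewhere. Utp15 had -0.032 with normexp, -0.09 with quantile normalization, -0.0027 with median scaling, -0.09 in the processed table and -0.045 with array weights. Ncl had -0.015 with normexp and -0.01 with median scaling. With the mean of all kept probes Polr1a had -0.0027 and Imp4 0.0073. Without single arrays the ranges were -0.06 to 0.36 for Myc, -0.011 to 0.35 for Polr1a, -0.0037 to 0.11 for Polr1c, -0.028 to 0.18 for Nop14, -0.11 to 0.12 for Utp15, -0.26 to 0.037 for Nop16, -0.16 to 0.05 for Rrs1, -0.20 to 0.08 for Wdr74 and -0.09 to 0.11 for Ncl. The count of genes with no overlap, 21, ran from 21 to 32 without single arrays, an alternative added after seeing the data, and over all genes from 12.8% to 20.1%. The match by accession or older symbol added no probe, so it changed nothing. The causes were not tested.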
